A study of Mus musculus with 262 samples.

Results

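The genes described here are the organic ion and drug transporters of the mouse: every gene whose symbol places it in the families Slc22a, Slco, Slc47a, Abcb, Abcc or Abcg, with symbols marked as pseudogenes left out. The rule, which used no measured value, found 68 such genes in each of the 5 deposited tables, among 47069 genes in the TPM tables and 24111 in the count table. They comprised 25 Slc22a, 15 Slco, 2 Slc47a, 10 Abcb, 10 Abcc and 6 Abcg genes. RNA came from kidneys of 2-month-old male mice that carried no further treatment in the labels. From C57BL/6 mice there were 235 single cells, which the authors named type A intercalated (87), type B intercalated (23), principal (74), proximal tubule (19) and non-epithelial (32). They were captured on a microfluidic chip after sorting with the lectin DBA, an antibody to c-Kit, both, or the lectin PNA. Bulk samples of sorted C57BL/6 cells were labelled c-Kit (2) or DBA (2). Further bulk samples, sorted for fluorescence as GFP-positive (2) and GFP-negative (2), came from the strain Atp6v1b1GFP, named for a proton pump subunit of intercalated cells. Single tubules dissected by hand from C57BL/6 mice came from the collecting duct of the cortex (CCD, 11) or its thick ascending limb (cTAL, 8). No label names the animal behind a sample, so replicate spread may be technical and p-values measure only that spread.

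Kidney epithelia clear drugs, conjugates and endogenous organic ions from blood in coupled steps. Basolateral uptake carriers, many of them of the Slc22a family, take the compound up from the blood side, and efflux proteins (Slc47a exchangers and ATP-driven pumps of the Abcb, Abcc and Abcg families) pass it on into the tubule lumen. The proximal tubule is the segment best known for this secretion, while the thick ascending limb and collecting duct are known for salt, acid and water handling. Other members sit on the luminal side and take compounds back up, or do other work, such as cholesterol export, heme and iron handling in mitochondria, or gating of potassium channels.

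Promoters are shown first for genes on which the later comparisons turn. Slc22a4 and Slc22a5 are neighbours on chromosome 11 that differed in the dissected tubules but went in the same direction in both sorted comparisons. Slco4a1 and Slco2a1 were, with Slc22a4, among the genes lower in CCD than in cTAL, and Abcc2 and Slc22a29 hold motif matches. Each sequence runs 5′ to 3′ along the gene's strand, from 250 bases before to 50 after a transcription start, and comes from RefSeq on GRCm38.p6. Capitals mark a match to the antioxidant response element TGACNNNGC in Abcc2 and to the HNF1-like motif GTTAATNAT (on the opposite strand) in Slc22a29, and the other windows hold no match to the motifs searched.
Slc22a4 (chr11:54028055-54028354, minus strand): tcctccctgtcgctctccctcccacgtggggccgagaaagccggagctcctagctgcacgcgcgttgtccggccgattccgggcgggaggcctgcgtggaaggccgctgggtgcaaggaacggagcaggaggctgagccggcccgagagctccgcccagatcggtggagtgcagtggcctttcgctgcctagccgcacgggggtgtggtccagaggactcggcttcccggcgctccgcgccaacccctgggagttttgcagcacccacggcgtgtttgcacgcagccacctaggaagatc
Slc22a5 (chr11:53891654-53891953, minus strand): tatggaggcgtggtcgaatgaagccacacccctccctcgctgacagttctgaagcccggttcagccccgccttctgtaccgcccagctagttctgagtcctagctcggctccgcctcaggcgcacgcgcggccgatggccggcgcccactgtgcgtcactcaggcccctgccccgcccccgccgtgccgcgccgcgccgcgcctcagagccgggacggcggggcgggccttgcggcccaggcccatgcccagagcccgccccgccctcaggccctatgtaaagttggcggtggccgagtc
Slco4a1 (chr2:180455995-180456294, plus strand): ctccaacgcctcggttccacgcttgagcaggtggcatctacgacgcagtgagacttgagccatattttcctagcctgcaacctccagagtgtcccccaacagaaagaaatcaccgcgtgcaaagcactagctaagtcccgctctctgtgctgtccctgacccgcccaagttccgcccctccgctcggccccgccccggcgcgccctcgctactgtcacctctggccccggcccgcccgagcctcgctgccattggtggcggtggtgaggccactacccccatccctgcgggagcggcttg
Slco2a1 (chr9:103008237-103008536, plus strand): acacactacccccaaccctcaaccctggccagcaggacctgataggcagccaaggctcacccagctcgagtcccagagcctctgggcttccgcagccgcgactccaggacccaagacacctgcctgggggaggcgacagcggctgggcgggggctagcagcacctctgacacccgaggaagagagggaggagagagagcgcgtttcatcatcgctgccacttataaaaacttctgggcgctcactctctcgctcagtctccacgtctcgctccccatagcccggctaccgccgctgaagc
Abcc2 (chr19:43782058-43782357, plus strand): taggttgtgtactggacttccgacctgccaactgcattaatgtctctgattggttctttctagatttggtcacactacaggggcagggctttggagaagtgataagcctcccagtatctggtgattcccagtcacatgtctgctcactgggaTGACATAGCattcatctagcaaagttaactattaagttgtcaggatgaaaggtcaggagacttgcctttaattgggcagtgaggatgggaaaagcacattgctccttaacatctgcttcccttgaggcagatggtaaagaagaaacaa
Slc22a29 (chr19:8218851-8219150, minus strand): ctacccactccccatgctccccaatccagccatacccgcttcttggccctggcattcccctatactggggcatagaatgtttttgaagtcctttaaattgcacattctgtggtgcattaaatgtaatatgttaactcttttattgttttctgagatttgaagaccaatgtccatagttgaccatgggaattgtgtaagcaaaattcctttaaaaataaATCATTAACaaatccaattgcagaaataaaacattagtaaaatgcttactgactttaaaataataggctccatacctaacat

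The table of promoters held 54 of the 68 genes, in 64 windows of 300 bases. On either strand, TGACNNNGC was found in 11 of the 64 windows (17.2%) and in 12.4% of all 32851 windows. GTTAATNAT was found in 2 windows (3.12%) against 0.801% of all windows, and the HNF4-like motif CAAAGTCCA in 0 against 0.475%. The windows of Slc22a4 and Slc22a5 were rich in GC (69.0% and 72.7%) and held 29 and 34 CpG pairs, while the window of Slc22a29 had 36.3% GC and 1 CpG. Slco4a1 (first start, 65.3% GC, 24 CpG) and Slco2a1 (64.0%, 18 CpG) resembled the former in this respect. Over all 64 windows the median GC content was 52.3%, close to the 52.7% of all windows.

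Among transporters at 10 TPM or more in a cell type, most had their highest mean in proximal tubule cells. Of the 68 genes, 31 averaged 10 TPM or more (transcripts scaled for gene length and to a fixed total per cell) in some type. Their highest mean lay in proximal tubule cells for 19 (61.3%, against 20.6% of all 10706 genes at that level), in non-epithelial cells for 6, in type A cells for 3, in principal cells for 2 and in type B cells for 1. In 14 of the 31 at least 50% of the summed level in that type came from 1 cell. Most of these 14 are among the 19 led by proximal tubule cells, so that count rests in part on single cells. Another 9 peaked between 1 and 10 TPM, and 28 stayed under 1 TPM in every type. No animal is named for any cell, so each type is 1 sample, no test was possible, and intervals below are exact Clopper-Pearson 95% intervals that cover counting error only.

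**Figure D1:**
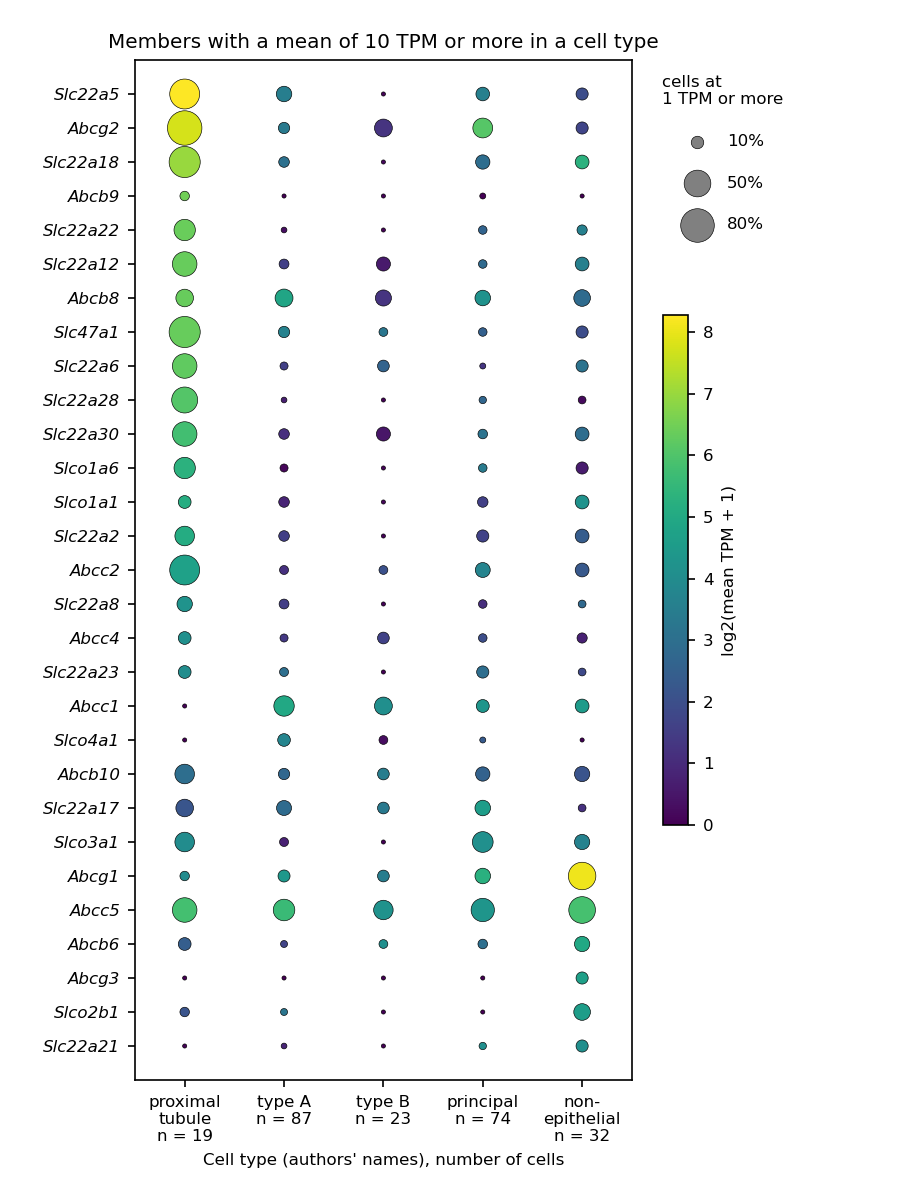
Mean level (colour, log2(mean TPM + 1)) and share of cells at 1 TPM or more (point area) of 29 of the 31 genes that averaged 10 TPM or more in a type, across the 5 cell types. The upper 18 genes are highest in the 19 proximal tubule cells, and Abcg1 stands out in the 32 non-epithelial cells.

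Most cells named proximal tubule carried markers of that segment, but some carried markers of other cells as well. The summed level of 10 proximal tubule markers had a median of 4790 TPM there, against 4.21 to 8.61 TPM in the 3 collecting duct types and 122 TPM in non-epithelial cells. It was at least 500 TPM in 14 of the 19 cells, and the lowest cell had 3.71 TPM. The same sum reached 500 TPM in 8 type A, 1 type B, 6 principal and 4 non-epithelial cells, with a highest value of 5490 TPM in 1 principal cell. Principal cell markers summed to 500 TPM or more in 9 of the 19 proximal tubule cells (median 178 TPM, highest 12459 TPM), and leukocyte markers in 4. The part of these transcripts in the results was not tested.

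Among basolateral uptake carriers, the organic anion transporter Slc22a6, which exchanges anionic drugs for dicarboxylates, had a mean of 75.3 TPM in proximal tubule cells and was at 1 TPM or more in 8 of 19 (42.1%, interval 20.3% to 66.5%). Its relative Slc22a8 was found in 3 of 19, with a mean of 18.2 TPM, and all 3 also held Slc22a6. The organic cation transporter Slc22a2 had a mean of 33.3 TPM (5 of 19), with at least 50% of its sum from 1 cell at 396 TPM. These 3 genes had means of at most 7.96 TPM in any other type. Slc22a28 and Slc22a30, relatives of the organic anion transporters, had means of 65.6 TPM (9 of 19) and 54.0 TPM (8 of 19). Of the 50-base windows of their exons, 53.9% and 34.2% also occur in another gene, for the most part in each other, so their split is uncertain.

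Luminal transporters were also found in proximal tubule cells. The efflux pump Abcg2, which exports urate and many drugs, was at 1 TPM or more in 16 of 19 (84.2%, interval 60.4% to 96.6%), with a mean of 214 TPM. The proton exchanger Slc47a1, which extrudes organic cations, was found in 13 of 19 (68.4%, 43.4% to 87.4%) with a mean of 80.2 TPM. All 5 cells with Slc22a2 also held Slc47a1. The conjugate pump Abcc2 was found in 12 of 19, but its mean of 25.4 TPM fell to 12.1 TPM without its top cell. The exchanger Slc22a12, which takes urate back up from the lumen, was found in 8 of 19, with a mean of 81.5 TPM. The pump Abcc4, which also exports cyclic nucleotides, was found in 2 of 19 cells (10.5%, 1.30% to 33.1%), and both also held Abcc2.

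The carnitine transporter Slc22a5 had the highest mean of all, 309 TPM, but 96.3% of it came from 1 cell at 5661 TPM, and the mean of the other 18 was 12.1 TPM. Abcb9, a lysosomal peptide transporter, was at 1668 TPM in that same cell and under 1 TPM in the rest. Of the 31 genes, 8 were found in at least 50% of the cells of the leading type (among them Abcg2, Slc47a1, Slc22a18, Slc22a5 and Abcc2 in proximal tubule cells, Abcg1 and Abcc5 in non-epithelial cells). Slc22a18, an organic cation carrier of an imprinted region, had a mean of 126 TPM in 13 of 19 proximal tubule cells.

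Proximal tubule cells differed among themselves. They held 4 to 15 of the 68 genes at 1 TPM or more, with a median of 9, against medians of 2 in type A and type B cells and 3 in principal and non-epithelial cells. In the 14 cells with at least 500 TPM of proximal tubule markers the median was 10.5, and in the other 5 it was 6. The Slco1a genes, polyspecific anion carriers, were concentrated in few cells: Slco1a1 was found in 2 (mean 34.6 TPM) and Slco1a6 in 6 (mean 38.5 TPM). The 5 cells under 500 TPM of proximal tubule markers, and cells of other types at 500 TPM or more, were then left out. This raised the proximal tubule mean of Slc22a6 to 102 TPM and of Abcg2 to 283 TPM. Those of Slc22a28 and Slc22a5 rose to 89.0 and 419 TPM. The mean of Abcc2 fell from 25.4 to 10.4 TPM. Its top cell, at 264 TPM of Abcc2, held 499 TPM of markers, just under the cutoff. The mean of Abcb8, a mitochondrial transporter, fell from 80.7 to 12.1 TPM, below its 22.4 TPM in type A cells. Here 1 cell with 3.71 TPM of markers held 1346 TPM of Abcb8. TPM keeps no depth, so a transcript missed in a cell cannot be told apart from one that was absent.

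**Figure D2:**
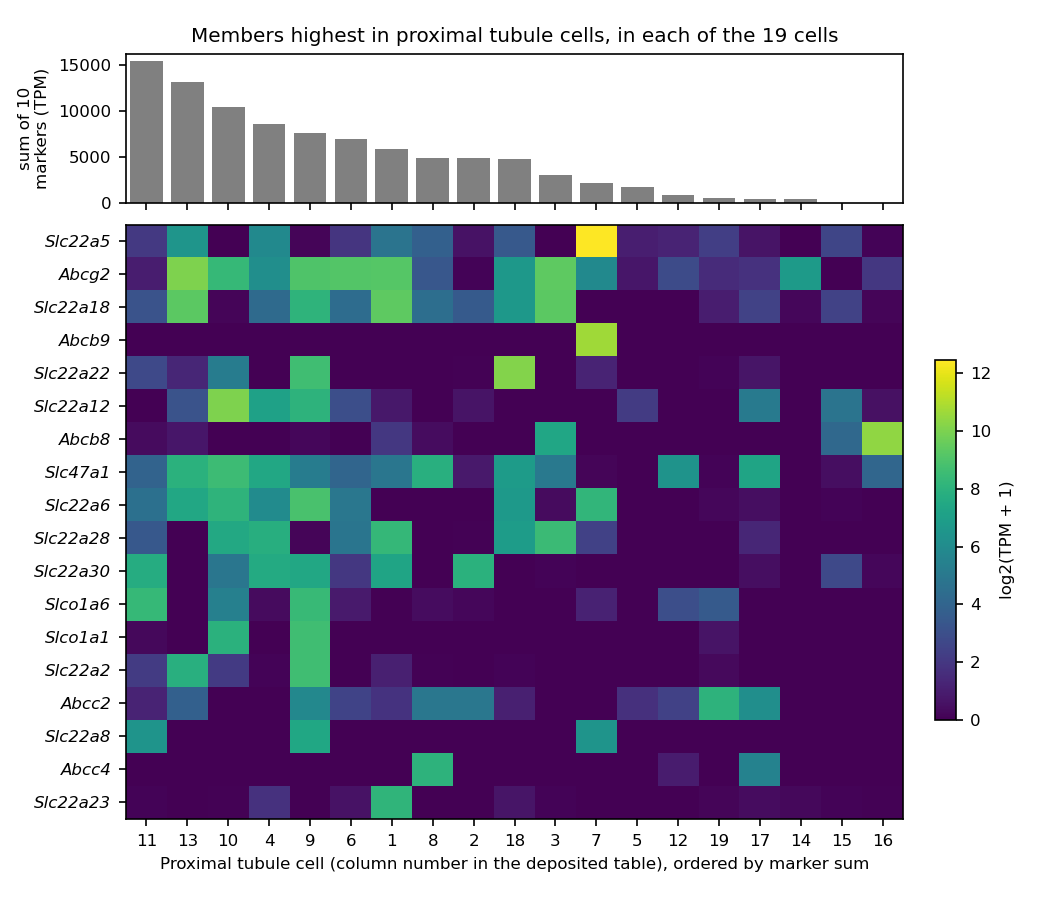
Of the genes highest in proximal tubule cells, 18 are shown in each of the 19 cells (colour, log2(TPM + 1)), with the cells ordered by their summed proximal tubule markers (bars, TPM). Abcg2 and Slc47a1 appear in most cells, whereas Abcb9 and most of Slc22a5 come from a single cell.

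A small set of genes had their highest mean in collecting duct cells. The multidrug and glutathione conjugate pump Abcc1 averaged 30.3 TPM over type A cells, being found in 25 of 87 (28.7%, interval 19.5% to 39.4%), in 5 of 23 type B (21.7%, 7.46% to 43.7%) and in 8 of 74 principal cells (10.8%, 4.78% to 20.2%). These intervals overlap, and its mean in non-epithelial cells was 21.8 TPM. It was found in 0 of 19 proximal tubule cells, which allows a share of up to 15.8% (3 cells of 19) or, as the upper end of the exact interval, 17.6%. Slco4a1, which carries thyroid hormone and prostaglandins, was found in 9 of 87 type A cells (10.3%, 4.84% to 18.7%; mean 12.8 TPM), in 1 of 23 type B and in 1 of 74 principal cells. Depth per cell is not known, so these shares are not corrected for it.

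In principal cells Slco3a1, a prostaglandin and thyroxine carrier, was found in 22 of 74 (29.7%, 19.7% to 41.5%) with a mean of 16.2 TPM, against 4 of 87 type A cells (4.60%, 1.27% to 11.4%) at 0.682 TPM. Its mean in proximal tubule cells was 15.1 TPM, in 5 of 19 cells. Without cells against their label in proximal tubule markers the order turned, with 20.4 TPM in proximal tubule and 17.5 TPM in principal cells. Slc22a17, a receptor for lipocalin, had means of 22.6 TPM in principal and 9.23 TPM in type B cells. Abcg2 was found in 20 of 74 principal cells with a mean of 67.4 TPM, the next level after that of the proximal tubule. Without the 6 principal cells rich in proximal tubule markers it was found in 18 of 68 at a mean of 62.3 TPM.

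Non-epithelial cells, in which the summed level of 6 leukocyte markers ran from 9009 to 83723 TPM, were set apart by Abcg1, the cholesterol exporter of macrophages. It was found in 17 of 32 cells (53.1%, 34.7% to 70.9%) at a mean of 269 TPM, with 36.9 TPM in principal cells as the next level. Abcc5, an efflux pump for nucleotide analogues, was found in 16 of 32 at 55.7 TPM, with 55.0 TPM in proximal tubule and 47.6 TPM in type A cells. Without cells against their label in proximal tubule markers these means were 63.7, 26.9 and 41.8 TPM. Slco2b1 (23.1 TPM in 6 of 32) and the rodent gene Abcg3 (24.8 TPM in 3 of 32) were lower, and Slco2b1 fell to 6.80 TPM without its top cell.

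The GFP-sorted samples compare cells with and without the reporter. Atp6v1b1 had 380 and 448 CPM (read counts scaled to a TMM-normalised library size) in GFP-positive and 15.0 and 11.4 CPM in GFP-negative samples, which goes with the labels. Of the 68 genes, 51 passed the filter on low counts. In GFP-positive samples 4 were higher, 7.84% of those tested against 15.2% of all 15671 genes, and 32 were lower, 62.7% against 17.3% of all genes. The median log2 difference was -2.21 over the 51 and 0.02 over all genes. The 10 proximal tubule markers were all lower too, with a median of -2.75 and a sum of 2887 to 4313 CPM in GFP-positive against 22640 to 24827 CPM in GFP-negative samples. All 5 leukocyte markers tested were lower as well (sums of 80.2 to 82.9 against 419 to 884 CPM). The part of these cells in the results was not tested. In bulk samples fewer cells of a type and less RNA per cell cannot be told apart.

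Among uptake carriers, 17 of 22 tested Slc22a genes were lower in GFP-positive samples (77.3%, against 17.3% of all genes). The number higher was 0 (against 15.2% of all genes). Slc22a2 had 84.2 and 81.5 CPM in GFP-positive against 698 and 816 CPM in GFP-negative samples, a log2 difference of -3.19 (SE 0.19, adjusted p = 4.3e-05). Slc22a6 had 137 and 105 against 541 and 580 CPM (-2.21, SE 0.20, adjusted p = 1.0e-04), and Slc22a8 had 51.9 and 39.7 against 139 and 120 CPM (-1.50, SE 0.20). Every replicate of these 3 genes lay lower in the GFP-positive group. With 2 samples per group, the uncalled Slc22a17 and Slc22a23 did not overlap either. Larger differences were found for Slc22a19 (-3.80), Slc22a26 (-3.66), Slc22a13 (-3.50) and Slc22a22 (-3.42), carriers of organic anions. Slc22a14 had a total of 1 read in GFP-positive and 173 in GFP-negative samples, a ratio of 169 with an exact counting interval of 29.9 to 6720. Its call was lost on RPKM values (limma, adjusted p = 0.25). Not called were Slc22a17 (19.2 and 19.3 against 17.7 and 19.0 CPM; 95% interval of the log2 difference -0.37 to 0.52) and Slc22a23 (-0.55 to 0.14).

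Of the 8 Slco genes tested, 7 were lower (87.5%, against 17.3% of all genes) and 1 higher (12.5%, against 15.2%). Slco1a1 had 94.4 and 46.4 CPM in GFP-positive against 521 and 408 CPM in GFP-negative samples (log2 difference -2.72, SE 0.33, adjusted p = 4.0e-04). Slco3a1 had 86.7 and 70.2 against 225 and 263 CPM (-1.64, SE 0.19), and the prostaglandin transporter Slco2a1 29.9 and 23.9 against 76.3 and 83.8 CPM (-1.57, SE 0.20). Slco4a1 went the other way, with 70.7 and 102 against 40.7 and 33.3 CPM (1.22, SE 0.23, adjusted p = 0.0039). On the authors' RPKM values the calls of Slco3a1 and Slco2a1 were lost (adjusted p = 0.091 and 0.13), whereas that of Slco4a1 was not.

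Several luminal efflux proteins were also lower in GFP-positive samples, whereas Abcc4 was higher. Slc47a1 had 98.2 and 57.4 CPM against 685 and 814 CPM (log2 difference -3.27, SE 0.28, adjusted p = 8.8e-05). Abcc2 had 158 and 83.4 against 905 and 992 CPM (-2.98, SE 0.30), and Abcg2 99.9 and 71.9 against 537 and 573 CPM (-2.69, SE 0.21). The P-glycoprotein genes Abcb1b (1.91 and 1.66 against 19.3 and 17.6 CPM) and Abcb1a (1.64 and 0.501 against 8.20 and 4.45 CPM) were low throughout, and 11.6% and 17.6% of their exon windows are shared, for the most part with each other. Abcb1a lost its call without GFP-positive replicate 2, and Abcb1b lost its call on RPKM values (limma, adjusted p = 0.16). Among mitochondrial and intracellular transporters, Abcb8, Abcb9 and Abcb10 were not called, with log2 differences from -0.07 to 0.40, while Abcb6 was lower (-1.44, SE 0.25). The last shares 50.0% of its windows with an overlapping gene model.

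The genes higher in GFP-positive samples were 3 of the 9 tested Abcc genes (33.3%, against 15.2% of all genes) and Slco4a1. Another 3 Abcc genes were lower (33.3%, against 17.3% of all genes). Abcc1 had 138 and 154 CPM against 41.0 and 41.3 CPM (log2 difference 1.83, SE 0.17, adjusted p = 1.1e-04). Abcc4 had 96.8 and 106 against 51.8 and 43.6 CPM (1.09, SE 0.18, adjusted p = 0.0020). On RPKM values both kept their direction (1.38 and 1.17) but not the call (adjusted p = 0.066 and 0.079). Abcc8, the sulfonylurea receptor subunit of potassium channels, had 80 reads in GFP-positive and 3 in GFP-negative samples, a ratio of 27.3 with a counting interval of 9.01 to 135. Its call was lost without GFP-negative replicate 1 or either GFP-positive replicate (adjusted p = 0.076 to 0.27). GFP-positive samples also held more of other distal markers: all 8 principal cell and all 5 distal convoluted and connecting tubule markers were higher, with sums of 1750 to 2277 against 482 to 559 CPM and 2608 to 3666 against 152 to 202 CPM. The 5 thick ascending limb markers summed to 9881 to 14797 against 8330 to 8641 CPM, with 1 higher and 1 lower. Their part in these 4 genes was not tested.

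**Figure D3:**
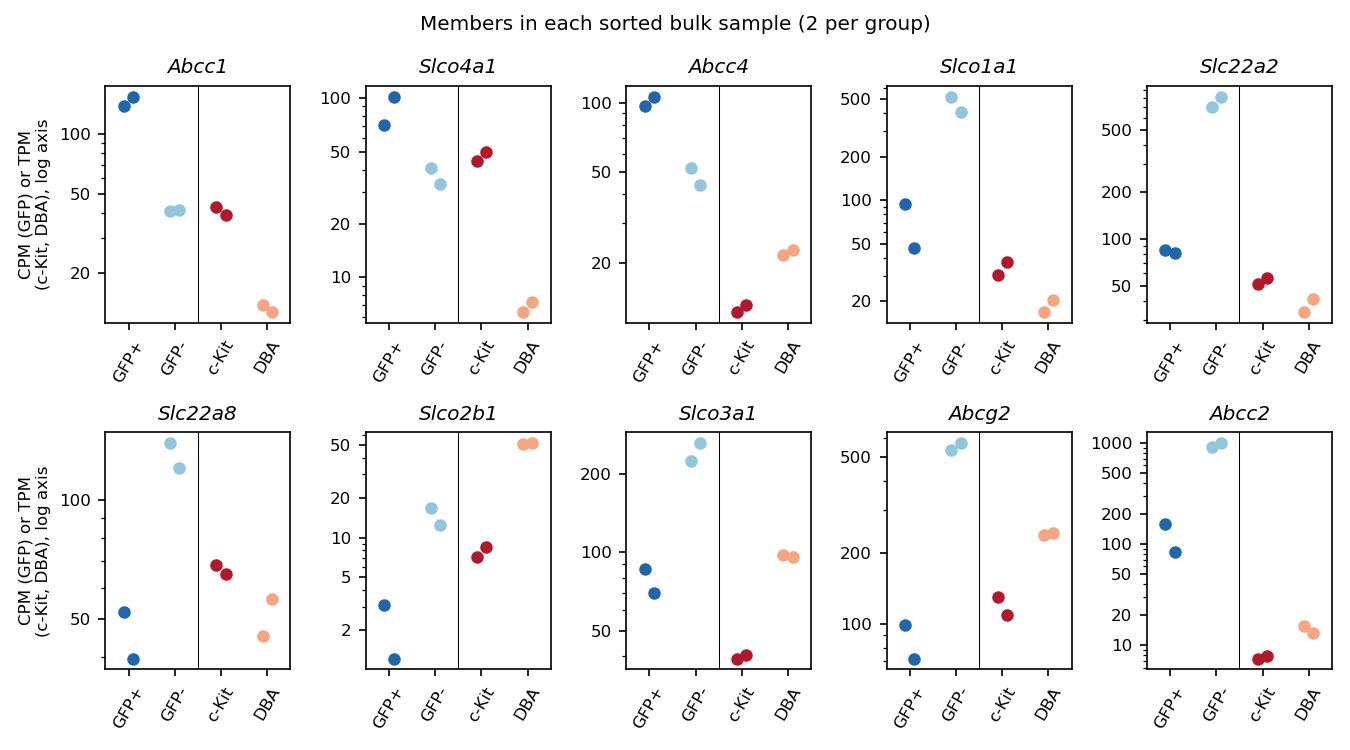
Level of 10 genes in each of the 2 replicates of the GFP-positive and GFP-negative (CPM) and of the c-Kit and DBA samples (TPM), on log axes that differ between panels. Abcc1 and Slco4a1 are higher in GFP-positive and in c-Kit samples, Abcc4 is higher in GFP-positive but lower in c-Kit samples, and Slco1a1, Slc22a2 and Slc22a8 show the opposite pair of directions.

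The c-Kit and DBA samples compare sorts enriched for intercalated and principal cells. All 8 intercalated cell markers were higher and all 8 principal cell markers lower in c-Kit. Of 43 transporters that averaged 1 TPM or more, 8 were higher in c-Kit (18.6%, against 16.1% of all 14341 genes) and 18 were lower (41.9%, against 28.1%). With quantile normalization, which moved the median of all genes from -0.11 to 0.02, 11 were higher and 14 lower. Without DBA replicate 1 the count of higher genes was 3, without c-Kit replicate 2 it was 5, and without DBA replicate 2 the count of lower genes was 11. Other cells moved with the sort: 7 of 10 proximal tubule markers were lower in c-Kit and 1 higher (sums of 3746 to 4000 against 5981 to 6313 TPM), and all 6 leukocyte markers were lower (3726 to 3973 against 12033 to 12503 TPM). Their part in the results was not tested.

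The largest differences in either direction were in Slco genes. Slco4a1 had 44.7 and 50.1 TPM in c-Kit against 6.40 and 7.29 TPM in DBA samples (log2 difference 2.63 on log2(TPM + 1), SE 0.12, adjusted p = 1.5e-05). Slco2b1 had 7.13 and 8.53 against 50.7 and 51.7 TPM (-2.57, SE 0.11, adjusted p = 1.5e-05). Its highest single-cell mean was in non-epithelial cells, with at least 50% of the sum from 1 cell. Leukocyte markers were lower in the c-Kit samples too, and their part in this difference was not tested. Slco3a1 had 39.1 and 40.5 against 97.8 and 96.2 TPM (-1.26, SE 0.07, adjusted p = 3.1e-05). Slco4c1, a carrier of digoxin and thyroid hormone, had 0.85 and 2.04 against 6.83 and 6.83 TPM (-1.72, SE 0.27), and lost its call without DBA replicate 2 (adjusted p = 0.053).

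Among efflux pumps, Abcc1 was higher in c-Kit, with 43.0 and 39.1 against 13.9 and 12.7 TPM (log2 difference 1.56, SE 0.10, adjusted p = 6.7e-05). Abcc4, in contrast, had 12.2 and 13.0 against 21.6 and 22.8 TPM (-0.77, SE 0.11, adjusted p = 0.0015). Abcg2 had 130 and 110 against 237 and 240 TPM (-0.99, SE 0.09, adjusted p = 2.2e-04), and Slc47a1 104 and 111 against 152 and 162 TPM (-0.54, SE 0.07). Abcb8 was higher in c-Kit with 95.6 and 97.0 against 66.7 and 61.8 TPM (0.58, SE 0.07). All these groups were separate, but with 2 samples per group so were those of uncalled genes such as Abcb9 and Abcb10.

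Uptake carriers went in both directions. The carnitine transporter Slc22a5 was lower in c-Kit (log2 difference -0.56, SE 0.08). Slc22a2 was higher, with 51.4 and 55.7 against 33.8 and 41.1 TPM (0.51, SE 0.11, adjusted p = 0.010), as were Slc22a8 (0.40, SE 0.11) and Slc22a7 (0.42, SE 0.11), a carrier of anions and cyclic guanosine phosphate. Slco1a1 rose in the same direction, with 30.2 and 37.5 against 16.8 and 20.5 TPM (0.83, SE 0.14, adjusted p = 0.0042). Without DBA replicate 1 none of these 4 increases was called (adjusted p = 0.060 to 0.16), and Abcc2 and Abcc5, among other decreases, lost the call as well (0.062 and 0.092). Slc22a2, Slc22a7 and Slc22a8 also lost the call without c-Kit replicate 2 (0.078 to 0.094), Slc22a8 without c-Kit replicate 1 (0.14) and Slc22a7 without DBA replicate 2 (0.12). Slc22a6 (106 and 105 against 80.6 and 98.9 TPM) and Slc22a17 (81.6 and 91.4 against 87.7 and 82.2 TPM) were not called.

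Of the 43 genes tested in both sorted comparisons, which share no samples, 20 were called in both, or 55.6% of the 36 GFP calls and 76.9% of the 26 c-Kit and DBA calls. Those 20 are 46.5% of the 43, against 20.5% of all 12781 genes tested in both. The direction was the same for 15 (75.0%, against 70.5% of all genes called in both): Abcc1 and Slco4a1 were higher in both GFP-positive and c-Kit samples, and 13 were lower in both. Abcc4 was higher in GFP-positive and lower in c-Kit samples. Slco1a1, Slc22a2, Slc22a7 and Slc22a8 were lower in GFP-positive and higher in c-Kit samples. The difference between the comparisons was not tested, as the tables hold different units and strains.

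**Figure D4:**
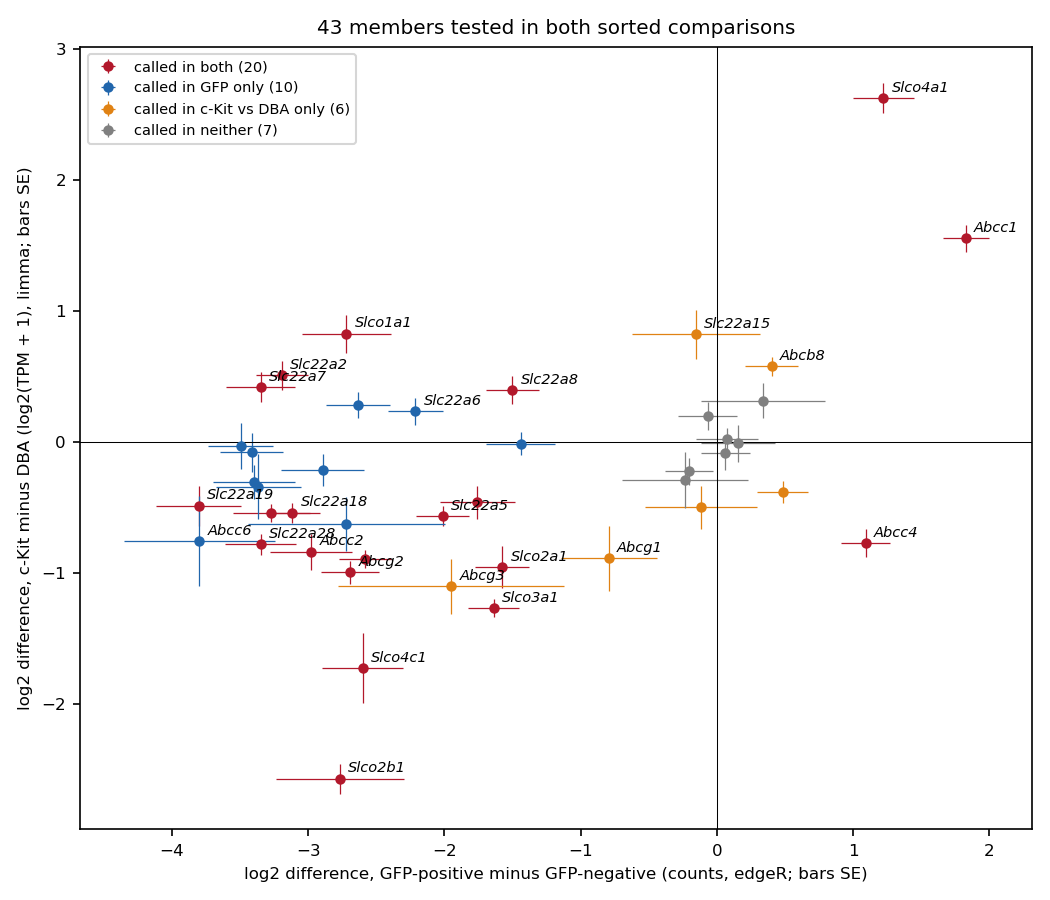
Log2 difference of 43 genes between GFP-positive and GFP-negative samples (x axis, from counts) against that between c-Kit and DBA samples (y axis, from TPM), with standard errors as bars and colour by call. Abcc1 and Slco4a1 lie in the upper right, Abcc4 alone among genes called in both in the lower right, and Slco2b1 at the bottom left.

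In dissected tubules 4 transporters were called, all higher in the thick ascending limb than in the collecting duct. The segments matched their labels: 5 thick ascending limb markers summed to 33613 to 53916 TPM in cTAL and 53.5 to 701 TPM in CCD, and 8 principal cell markers to 809 to 1170 TPM in cTAL and 26937 to 49693 TPM in CCD. Of 41 genes that averaged 1 TPM or more, 4 were lower in CCD than in cTAL (9.76%, against 5.5% of all 13520 genes). None was higher at the threshold (0 of 41, against 13.2% of all genes), while 5 were higher at an unadjusted p under 0.05 and 4 were called higher by limma with sample weights. The median log2 difference was 0.40 over the 41 genes and 0.31 over all genes. Quantile normalization moved the latter to -0.03, and the split of all calls from 1782 higher and 744 lower to 1221 and 1244. In that fit 0 members were higher and 5 lower.

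Slc22a4 stood apart. This carrier of ergothioneine, a dietary antioxidant, spans chr11:53983123-54028090 on the minus strand of GRCm38. It had a lowest, median and highest level of 52.7, 79.3 and 138 TPM in the 8 cTAL and 0.03, 0.41 and 9.40 TPM in the 11 CCD tubules, so every cTAL lay above every CCD. The log2 difference was -5.50 on log2(TPM + 1) (SE 0.45, adjusted p = 2.1e-09), and it was between -4.95 and -5.77 with sample weights, quantile normalization, prefix means and without tubules rich in proximal tubule markers. Its neighbour Slc22a5, whose promoter lies on the same strand at chr11:53891654-53891953, was not called: it had 17.8, 44.5 and 72.1 TPM in cTAL and 3.54, 25.8 and 110 TPM in CCD (-0.69, SE 0.45, adjusted p = 0.34). Slc22a21, between them, was low in both segments (medians of 1.11 TPM in cTAL and 0.18 TPM in CCD). It shares 22.0% of its windows, chiefly with Slc22a5, so those 2 genes are less certain. In the sorted samples Slc22a4 and Slc22a5 did not diverge: both were called lower in GFP-positive and in c-Kit samples. Slc22a4 had 22.3 and 13.4 CPM in GFP-positive against 66.1 and 54.5 CPM in GFP-negative samples. It had 8.74 and 9.14 TPM in c-Kit against 12.0 and 13.4 TPM in DBA samples. The latter call was lost with quantile normalization (limma, adjusted p = 0.21).

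The other 3 called genes were Slco genes. Slco4a1 had 42.5, 52.2 and 69.8 TPM (lowest, median, highest) in cTAL and 0.02, 12.5 and 37.5 TPM in CCD, again without overlap (log2 difference -2.33, SE 0.61, adjusted p = 0.0080). The difference was -1.62 without the 6 tubules that held 400 TPM or more of proximal tubule markers. Slco2a1 had 0.01, 6.23 and 24.4 TPM in cTAL and 0.00, 0.12 and 1.57 TPM in CCD (-2.30, SE 0.47, adjusted p = 9.5e-04), with 2 cTAL inside the CCD range. Slco3a1 was abundant in both segments, with 75.8, 96.4 and 140 TPM in cTAL and 37.2, 55.9 and 93.5 TPM in CCD (-0.82, SE 0.21, adjusted p = 0.0067), and the groups overlapped. Tubule columns carry prefixes, m1 to m7, whose meaning is not stated, and tubules of 1 prefix may share an animal. In means per prefix with the prefix as a replicate block, Slc22a4 and Slco4a1 kept the call (adjusted p = 1.4e-04 and 0.045), and Slco2a1 and Slco3a1 did not (0.086 and 0.081).

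**Figure D5:**
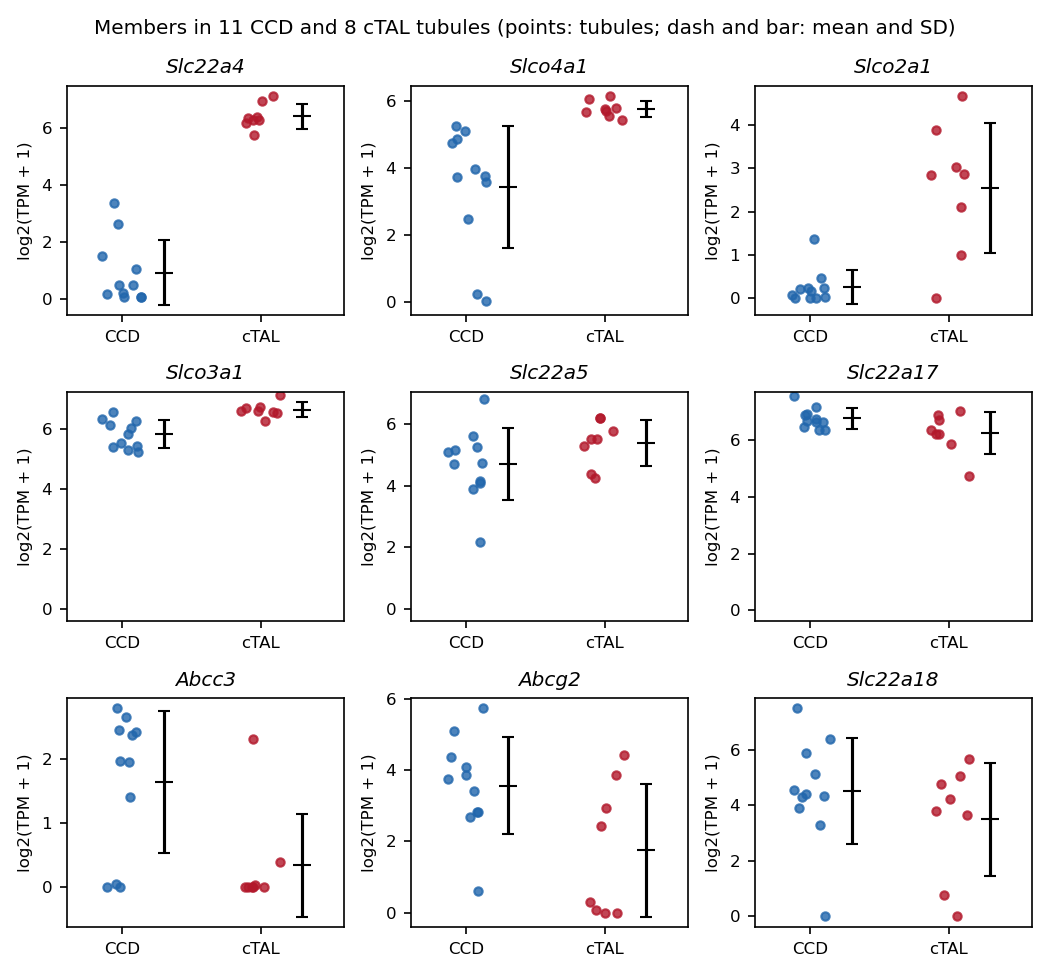
Level of 9 genes in each of the 11 CCD and 8 cTAL tubules (points, log2(TPM + 1)), with the mean and SD of each segment beside the points. Slc22a4 separates the segments fully, Slco4a1 also does, and Abcg2 and Slc22a18 spread widely within both.

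The other transporters tested in tubules were not called, and many varied widely. Slc22a17 had medians of 101 TPM in CCD and 78.4 TPM in cTAL (adjusted p = 0.19), and Abcb8 of 69.9 and 99.7 TPM (adjusted p = 0.23). Without the tubule m2 CCD2, which held 0.10 TPM of Abcb8, that gene was called lower in CCD (log2 difference -0.56, adjusted p = 0.035). The same tubule had the lowest Abcc1 level of the CCD, 0.06 TPM. Abcc1 had 0.06, 16.4 and 25.6 TPM in CCD and 19.2, 23.2 and 50.6 TPM in cTAL (log2 difference -1.10, SE 0.48, adjusted p = 0.12), and was called lower in CCD with quantile normalization (-1.32, adjusted p = 0.0076). Genes led by proximal tubule cells ranged widely within a segment: Slc22a18 ran from 0.00 to 177 TPM in CCD and from 0.00 to 49.7 TPM in cTAL, and Slc22a6 from 0.01 to 56.1 and from 0.00 to 14.7 TPM. The proximal tubule markers ranged likewise, from 43.0 to 1917 TPM in CCD and 2.21 to 863 TPM in cTAL. Without the 6 tubules richest in them, Abcc3 (log2 difference 1.90, adjusted p = 0.0098) and Slco4c1 (1.68, adjusted p = 0.043) were called higher in CCD. In all tubules the differences were 1.30 (adjusted p = 0.054) and 1.21 (adjusted p = 0.11).

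Other genes of the pathway were taken from lists of partner carriers and scaffolds, transcription factors known to act on transporter genes, and drug-metabolising and conjugating enzymes. In GFP-positive samples 11 of 14 partners were lower and 2 higher, and 6 of 10 factors were lower and 2 higher. Of 16 enzymes 15 were lower and 0 higher. The lower shares were 78.6%, 60.0% and 93.8%, against 17.3% of all genes. The higher shares were 14.3%, 20.0% and 0%, against 15.2% of all genes. Pdzk1, a scaffold that anchors luminal transporters, had 89.2 and 59.2 against 444 and 386 CPM (log2 difference -2.48, SE 0.23), while Slc9a3r1, its relative, changed less (-0.56, SE 0.18, adjusted p = 0.046). Nfe2l2, the factor that binds antioxidant response elements, was higher in GFP-positive samples, with 292 and 361 against 154 and 169 CPM (1.02, SE 0.18, adjusted p = 0.0033). The enzymes Cyp4b1 (-2.70), Acsm2 (-2.55) and Gstm1 (-1.89) were lower.

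In c-Kit against DBA samples 5 of 14 partners were lower and 0 higher, and 3 of the 8 factors tested were lower and 1 higher. Of 16 enzymes 7 were lower and 0 higher. The lower shares were 35.7%, 37.5% and 43.8%, against 28.1% of all genes. Of the factors 12.5% were higher, against 16.1% of all genes. Pdzk1 had 285 and 266 against 453 and 445 TPM (log2 difference -0.71, SE 0.06), and the phosphate and urate carrier Slc17a1 was not called (-0.13, SE 0.07). Nfe2l2 was nearly equal, with 227 and 222 against 230 and 217 TPM (adjusted p = 0.92). In tubules 2 of the 13 partners tested, 1 of 9 factors and 3 of 15 enzymes were higher in CCD. Of the same lists 0, 1 and 1 were lower. The higher shares were 15.4%, 11.1% and 20.0%, against 13.2% of all genes. The lower shares were 0%, 11.1% and 6.67%, against 5.5% of all genes. Among the listed genes Nfe2l2 (0.90, SE 0.20, adjusted p = 0.0017) and Slc9a3r1 (1.02, SE 0.27, adjusted p = 0.0076) were higher in CCD. In single cells Pdzk1 and Slc17a1 were highest in proximal tubule cells, with means of 407 and 245 TPM. The mean of Nfe2l2 was lowest there (114 TPM, against 270 to 330 TPM in the other types). Such a mean can rest on few cells. The 10 factors summed to a median of 134 TPM in proximal tubule cells. In the other types that median was 61.4 to 252 TPM, and the highest type A cell held 18803 TPM.

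Neighbouring members did not always move together. The largest group, 8 Slc22a genes at chr19:7673061-8628299, had 7 tested in the GFP samples. All 7 were lower in GFP-positive samples, against 17.3% of all genes. Slc22a28, Slc22a30 and Slc22a29 share 53.9%, 34.2% and 28.7% of their windows with other genes, so the 7 are not fully separate measurements. The call of Slc22a29 was lost when GFP-negative replicate 2 was left out (adjusted p = 0.055) and when GFP-positive replicate 1 was left out (0.096). In c-Kit against DBA samples 6 of the 8 genes were tested, of which Slc22a8 was higher and Slc22a19 and Slc22a28 were lower. Of all genes 16.1% were higher and 28.1% lower there. The call of Slc22a19 was lost without c-Kit replicate 2 or either DBA replicate (adjusted p = 0.12 to 0.24) and with quantile normalization (0.32). Near each other on chromosome 6, 4 of 7 genes (Slco1a1, Slco1a4, Slco1a6 and Abcc9, the last a subunit of potassium channels) were tested in the GFP samples. All 4 were lower, against 17.3% of all genes, though Abcc9 was not called on RPKM values (limma, adjusted p = 0.14). A further 19 of the 68 genes never reached a mean of 10 in any group and were called in no comparison, the highest being Slc22a3 at 1.56 CPM in GFP-positive samples. Among them were the liver genes Abcb11 and Slco1b2, the sterol transporters Abcg5 and Abcg8, and Slc47a2.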

How the data were processed

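Values are those the authors deposited. Single-cell, c-Kit, DBA and tubule tables hold TPM, scaled by the authors to about 1000000 per sample. The unit of the tubule table was read from its sums. GFP samples have raw read counts made with htseq-count on RefSeq genes of mm10 and RPKM, per the file headers and names. The submitters' processing notes name STAR 2.5.1b, RSEM 1.2.31, Seurat and GRCm38.p5, without tables. Use of strand in counting is not given, so overlapping antisense genes are uncertain. GFP samples had 35530885 to 40815091 reads in genes. Reads in no gene (66.7% to 72.8% of those listed) were left out. TPM keeps no depth. Unused per-sample columns numbered 0.

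Counts were tested with edgeR 4.0.16 (TMM, filterByExpr, quasi-likelihood F test) and log2(TPM + 1) with limma 3.58.1 (variance trend, mean of at least 1 TPM) in R 4.3.3. Fold changes on log2(TPM + 1) understate changes of low genes. P-values were adjusted by Benjamini-Hochberg over all genes tested, with calls made below 0.05. For edgeR, SE is the log2 difference divided by the root of F. Scripts were tested on simulated data. In the GFP samples the RPKM headers pair the samples as a first and a second experiment, and deviations of same-numbered count samples correlated at 0.18. Members and lists were chosen with earlier results of these data known. Genes named have a mean of at least 10 (TPM or CPM) in a group or a call, and 3 per pathway list with the largest mean. Shares and intervals were computed with Python and scipy 1.17.1. Positions are from GENCODE M21 (GRCm38). Alternatives included DESeq2 1.42.0, RPKM, other size factors, filters, pseudocounts and normalizations, replicate blocks and leaving out samples. Those without proximal tubule-rich tubules or cells, and with prefix means, were added after seeing the data. Results for a few genes are not reported here.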

Additional observations from a re-analysis of the deposited data

Results flagged for a closer look

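In the 8 cTAL tubules, levels on log2(TPM + 1) of 37 genes with at least 1 TPM in some tubule were searched for a tubule far from the others, and 6 genes are given here. Chance flags about 1 in 20 groups, and the 4 genes with a high tubule were at 0 in 3 or more of the others. A single high tubule was found for Abcb1b (2.43 TPM, the others at most 0.79), Abcc2 (4.53 TPM, the others at most 0.43), Abcc3 (3.92 TPM, the others at most 0.31) and Slc22a22 (7.15 TPM, the others at most 1.68). A single low tubule was found for Abcb6 (0.01 TPM, the others 9.51 to 53.7) and Abcc4 (0.04 TPM, the others 6.46 to 34.0). The high Abcc2 and Abcb1b values came from m7 cTAL1 and m7 cTAL2, whose columns carry the same prefix. Causes were not tested.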

How the results depend on the processing

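No called member changed direction under any alternative. With a replicate block, 4 members were higher and 32 lower in GFP-positive samples and 8 higher and 18 lower in c-Kit samples, as without it, and no call of a member changed. For the c-Kit and DBA samples the labels state no pairing by number, and a correlation of 0.03 from 2 pairs cannot settle it. The numbers in the tubule titles could not be tied to columns, so they could not serve for pairing. The only fit with a block for the tubules used means per column prefix, whose meaning is not stated. Prefix deviations of the segments correlated at 0.02 to 0.16, and 2 of 6 prefixes matched best with themselves. With limma on RPKM 1 member was higher and 22 lower in GFP-positive samples, among fewer genes tested. Leaving out a replicate gave 3 to 4 higher and 31 to 33 lower there, and 3 to 7 higher and 11 to 17 lower in c-Kit samples. Of the called members 25 of 36 and 12 of 26 kept the call under each setting that tested them. In the tubules the count higher in CCD was 1 with a pseudocount of 0.1, 4 with sample weights, 2 without tubules at 400 TPM or more of proximal tubule markers, and 0 to 1 when a tubule was left out. The count lower was 2 with prefix means and 4 to 5 when a tubule was left out. In single cells a median of at least 1 TPM gave 6 genes highest in proximal tubule, 2 in non-epithelial and 0 in type A, type B and principal cells. The share of cells above 0 TPM gave 5 highest in type B. Without cells against their label in proximal tubule markers 1 was highest in principal cells. The cause of these changes was not tested. Depth is unknown for all TPM values, and 2 samples per sorted group limit the precision.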
